A study of Mus musculus with 6 samples.

Results

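The 10 genes described here encode cytokines of the interleukin-6 family and receptor chains that signal through gp130 or pair with it. They were taken by symbol from both deposited count tables: *Lif*, *Lifr*, *Il6st*, *Osmr*, *Il6ra*, *Il11ra1*, *Il11*, *Cntfr*, *Clcf1* and *Ctf1*. All 10 were found among the 23420 genes of the tables. RNA was sequenced from the uterine luminal layer, taken by laser microdissection, and from blastocysts flushed from the uterus, all on day 4 of pregnancy at 8 pm, when embryos are close to attaching. Females labelled control carried *Lif* alleles floxed on both chromosomes, without Cre, and received PBS. Females labelled *Lif* eKO carried the same floxed alleles with *Ltf*-Cre, which is driven by the lactoferrin promoter and deletes *Lif* in the uterine epithelium while the stroma keeps the gene, and they also received PBS. The third group had the *Lif* eKO genotype and was injected with recombinant Lif protein (rLif), 20 µg a head each time, at 10 am and again at 6 pm, which was 2 h before collection. Blastocysts of all 3 groups were labelled *Lif*-floxed/+, so their labels give 1 intact allele in each group. Each of the 6 groups was 1 library of pooled material, and no difference between groups had a replicate check. No p-values are given, and intervals cover counting error only.

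Cytokines of this family bind receptor complexes that contain gp130, the product of *Il6st*. Lif and cardiotrophin-1 bring gp130 together with the Lif receptor chain, whereas interleukin-6 and interleukin-11 first bind a receptor of their own that carries no signal, and then recruit gp130 alone. Janus kinases bound to these chains phosphorylate Stat3, which induces its own inhibitor *Socs3*. In mice, Lif from the uterine glands acts on the luminal epithelium on day 4, and females without it are infertile because blastocysts do not attach.

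Total counts ranged from 18996158 to 28460465 per library. Levels are given as CPM, counts scaled by TMM library sizes within each tissue, and different genes were compared only per length, as TPM. Values are listed in the order control, *Lif* eKO and rLif-treated *Lif* eKO throughout. All 8 luminal epithelium markers were detected in each luminal library, with summed levels of 4934 to 6709 CPM. All 8 stroma markers were detected there too, at 672, 1040 and 745 CPM, so the dissected layer was not epithelium alone. The blastocyst libraries held all 6 trophectoderm and all 6 inner cell mass markers. Of the luminal epithelium markers, *Wnt7a* was at 0 counts in each blastocyst library and the other 7 were detected. The list summed to 6861, 7212 and 6836 CPM there, so this sum does not tell the tissues apart. In pooled tissue, fewer cells of a type and less RNA per cell cannot be told apart.

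*Lif*, the ligand whose gene was deleted (chromosome 11, 4257568 to 4272514, plus strand, GRCm38/mm10), was nearly absent from the luminal layer. Its counts were 0 in the luminal control, 28 in the library labelled eKO and 0 after rLif. Only the library labelled eKO thus held *Lif* reads, at 0.975 CPM (95% interval 0.648 to 1.41). It exceeded the luminal control 8.20-fold with a floor of 3 counts put there, and the lower end of the log2 interval was 2.64. The labels imply no more *Lif* in eKO than in control, and these few reads went the other way. Glands are the known source of Lif on this day and their markers were low here, so little *Lif* was implied in control too. Luminal groups are named by their labels throughout. *Socs3*, which Lif signalling induces, was lowest in the library labelled eKO and highest after rLif, at 1482, 153 and 4242 counts. Of the 4040 bases over which *Lif* reads were counted, 84.9% were not coding, and the floxed segment spans exon 3 and the coding part of exon 4, so a count per gene could include transcripts from the deleted allele and cannot by itself check the labels. The injected rLif was a protein and adds no reads.

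Gland, trophectoderm and inner cell mass markers, which could accompany *Lif* in that library, were low there. Stroma markers were not low, and their sum of 1040 CPM was the highest of the luminal libraries. The glandular epithelium list, whose cells are the known source of uterine Lif on this day, summed to 18.1, 18.6 and 37.4 CPM, with *Foxa2* at 3, 0 and 10 counts. The blastocyst genes *Dppa5a* and *Cdx2* had 55 and 15 counts in the library labelled eKO and 0 counts in the other luminal libraries. *Nanog* and *Pou5f1* were at 0 in all 3. The part of blastocyst, gland or stroma RNA in these *Lif* reads was not tested.

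The other 3 ligands differed widely in the luminal layer. *Clcf1* (chromosome 19, 4214392 to 4222615), which encodes cardiotrophin-like cytokine factor 1, had 1113, 179 and 555 counts. Its level was 44.1, 6.23 and 21.3 CPM, highest in control and lowest in eKO, with the rLif-treated library between them. *Ctf1* (chromosome 7, 127712736 to 127718185), which encodes cardiotrophin-1, had 1758, 5727 and 1705 counts, or 69.6, 199 and 65.5 CPM. It was the only abundant ligand that was highest in the library labelled eKO, and the other libraries were nearly equal. Of the 8 stroma markers, 6 were highest in the same library, and their sum was 1040 CPM against 672 CPM in control. Most of that gap was *Col3a1*, and without it the sums were 539 and 446 CPM. Their part in the *Ctf1* level was not tested. *Il11*, the ligand of the interleukin-11 receptor, had 6, 1 and 0 counts, close to the floor.

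The receptor chains that carry the signal behaved unequally. *Il6st* (chromosome 13, 112464070 to 112506860) had 661, 826 and 1047 counts, or 26.2, 28.8 and 40.2 CPM. The common chain was thus highest after rLif, while control and eKO did not differ beyond counting error. *Lifr* (chromosome 15, 7129572 to 7197489) had 5362, 1463 and 4554 counts, or 212, 50.9 and 175 CPM, low only in the library labelled eKO. *Osmr* (chromosome 15, 6813577 to 6874313), the oncostatin M receptor chain, had 1413, 71 and 4178 counts, or 56.0, 2.47 and 160 CPM. Among members with counts in every luminal library and above the count minimum it had the largest ratio of highest to lowest level, lowest in the library labelled eKO and highest with rLif, above control. *Osmr* and *Lifr* are neighbours on chromosome 15, on opposite strands with 255258 bases between them and no other gene of the tables in that interval.

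Of the chains that bind a ligand without signalling, *Il6ra* (chromosome 3, 89869324 to 89913162) had 268, 40 and 246 counts in the luminal layer. This was 10.6, 1.39 and 9.45 CPM, low only in the library labelled eKO. *Il11ra1* (chromosome 4, 41760443 to 41769473), the interleukin-11 receptor, had 1099, 1368 and 1379 counts, or 43.5, 47.6 and 53.0 CPM, and changed least of the receptor chains. Its exons overlap those of *Ccl27a*, which had 32, 99 and 60 counts, and its near copy *Il11ra2* was at 0 counts in all 6 libraries. How reads shared with these genes were assigned is not stated, so the *Il11ra1* values are uncertain. *Cntfr* (chromosome 4, 41657498 to 41697091), the receptor chain for ciliary neurotrophic factor and the *Clcf1* product, was at 0 counts in each luminal library, which allows up to 0.119 CPM in control.

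**Figure D1:**
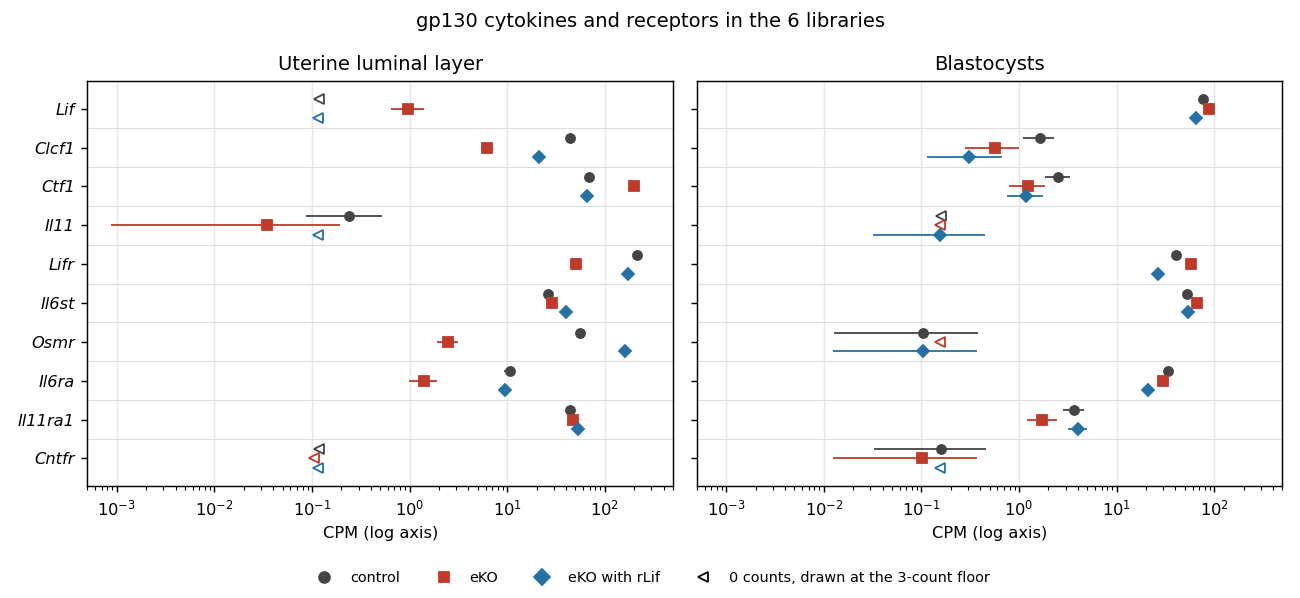
Level of each gene in CPM (log axis) in the 3 luminal libraries (left) and the 3 blastocyst libraries (right), with exact 95% Poisson intervals; open triangles mark 0 counts, drawn at the floor of 3 counts. In the luminal layer *Osmr* spans 2.47 to 160 CPM while *Il11ra1* stays between 43.5 and 53.0 CPM, and *Lif* is abundant only in blastocysts.

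The promoters of 4 members that stood apart in the luminal layer are shown, because *Osmr*, *Lifr* and *Il6ra* were low together in the library labelled eKO and *Ctf1* was high there. Each is the 250 bases before the transcription start in RefSeq (GRCm38.p6), printed 5′ to 3′ on the strand of the gene, with CG dinucleotides in capitals. *Clcf1* had no entry, and 9 of the 10 members were matched.
*Osmr* (chr15:6874314-6874563, minus strand): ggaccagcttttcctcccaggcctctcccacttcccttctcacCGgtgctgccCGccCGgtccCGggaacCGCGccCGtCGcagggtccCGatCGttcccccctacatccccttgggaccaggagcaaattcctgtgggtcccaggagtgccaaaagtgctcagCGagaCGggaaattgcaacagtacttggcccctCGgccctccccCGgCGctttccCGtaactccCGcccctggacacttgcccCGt
*Lifr* (chr15:7129322-7129571, plus strand): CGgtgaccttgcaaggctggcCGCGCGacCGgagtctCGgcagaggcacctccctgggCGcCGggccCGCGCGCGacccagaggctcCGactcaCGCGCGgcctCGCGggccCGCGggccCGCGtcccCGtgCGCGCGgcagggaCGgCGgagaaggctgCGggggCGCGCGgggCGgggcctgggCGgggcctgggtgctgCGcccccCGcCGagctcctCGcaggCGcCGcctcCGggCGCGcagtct
*Il6ra* (chr3:89913197-89913446, minus strand): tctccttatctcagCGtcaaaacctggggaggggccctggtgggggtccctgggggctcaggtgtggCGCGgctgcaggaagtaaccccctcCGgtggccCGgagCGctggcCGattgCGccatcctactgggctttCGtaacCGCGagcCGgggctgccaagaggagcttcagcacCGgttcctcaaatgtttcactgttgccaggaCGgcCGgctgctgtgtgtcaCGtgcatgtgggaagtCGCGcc
*Ctf1* (chr7:127712453-127712702, plus strand): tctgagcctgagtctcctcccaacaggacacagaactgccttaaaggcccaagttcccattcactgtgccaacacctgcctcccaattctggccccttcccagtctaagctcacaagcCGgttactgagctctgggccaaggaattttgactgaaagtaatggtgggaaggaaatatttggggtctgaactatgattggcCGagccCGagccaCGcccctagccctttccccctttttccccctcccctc

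These 4 stretches differ in base composition. The *Lifr* promoter holds 43 CG dinucleotides at a G+C content of 82.4%, *Osmr* and *Il6ra* hold 18 each at 66.0% and 65.2%, and *Ctf1* holds 4 at 54.8%. The median over all 32851 RefSeq promoters was 6. *Lifr* also has another listed start inside the gene, whose upstream bases hold 3. The motif TTCNNNGAA, the general form of a Stat binding site, which reads the same on both strands, was found in 0 of the 17 promoters listed for the 9 matched members, searched from 250 bases before to 50 after the start. It was found in 8.30% of all RefSeq promoters of this length, and in 9.55% of genes. Of the 17 promoters, 6 belong to *Cntfr*, mostly in overlapping windows, so they are not separate sequences. At these shares, so few promoters would hold few matches or none. The absence of these letters in this window says nothing about Stat binding elsewhere.

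The comparison of the libraries labelled eKO and control asked which transcripts differed when epithelial Lif was missing. *Osmr* fell 22.6-fold, *Il6ra* 7.62-fold, *Clcf1* 7.07-fold and *Lifr* 4.17-fold, while *Ctf1* rose 2.86-fold. A gene was called when its whole 95% counting interval was past a 2-fold change, which compares these libraries and not the conditions. The log2 ratios were -4.50 (interval -4.87 to -4.16) for *Osmr*, -2.93 (-3.45 to -2.45) for *Il6ra*, -2.82 (-3.06 to -2.59) for *Clcf1* and -2.06 (-2.14 to -1.98) for *Lifr*. *Ctf1* had a log2 ratio of 1.52 (1.44 to 1.60). The 2 genes not called were *Il6st*, at 0.14 (-0.01 to 0.29), and *Il11ra1*, at 0.13 (0.01 to 0.25).

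Of the 10 members, 8 had at least 10 counts over the luminal libraries. Of these, 4 were called lower and 2 higher in the library labelled eKO, against 17.2% of 15694 genes called in either direction, 9.15% lower and 8.08% higher. *Lif*, 1 of the 2 called higher, passed the count minimum only through the library where it was present and had to differ. Without it, 5 of 7 were called, with a median log2 ratio of -2.06, beside 0.00 over all genes tested. Against no change in place of 2-fold, 7 of 8 members were called, beside 74.7% of genes. With edgeR's exact test at a dispersion of 0.1, assumed here, and the study's limits on FDR (0.05) and on the size of the log2 fold change (1), 5 of 8 members and 7.96% of genes were called, and *Ctf1* was not. Both counts include *Lif*.

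The comparison of rLif-treated with untreated eKO asked which transcripts differed once Lif was supplied. *Osmr* rose 64.9-fold, *Il6ra* 6.78-fold, *Lifr* 3.43-fold and *Clcf1* 3.42-fold, and *Ctf1* fell 3.05-fold. The log2 ratio of *Osmr* was 6.02 (5.68 to 6.38), larger in size than that of 99.7% of the genes tested. The others were 2.76 (2.28 to 3.28) for *Il6ra*, 1.78 (1.69 to 1.87) for *Lifr*, 1.77 (1.53 to 2.03) for *Clcf1* and -1.61 (-1.69 to -1.53) for *Ctf1*. *Il6st*, at 0.48 (0.35 to 0.62), and *Il11ra1*, at 0.15 (0.04 to 0.26), were not called. In all, 4 members were called higher and 2 lower, *Lif* among the latter, against 15.6% of genes in either direction, 7.88% higher and 7.77% lower. *Lif* again had to differ, and without it 5 of 7 were called. Against no change, 8 of 8 were called, beside 71.4% of genes. This comparison shares the library labelled eKO with the one before, and is not independent of it. EdgeR's exact test at the same dispersion called 3 of 8 members and 7.07% of genes, and no longer *Lifr*, *Clcf1* and *Ctf1*, with *Lif* in both of these counts.

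Comparing rLif-treated eKO with control leaves out the only luminal library that held *Lif* reads. Here 1 of 8 members was called, *Osmr*, which was 2.87-fold higher with rLif (log2 ratio 1.52, interval 1.43 to 1.61), against 9.16% of genes in either direction, 4.12% higher and 5.04% lower. *Clcf1* was 2.07-fold lower, and its log2 ratio of -1.05 (-1.20 to -0.90) was not called because 2-fold lay within its interval. *Il6st* had a log2 ratio of 0.62 (0.48 to 0.76) and *Lifr* of -0.28 (-0.34 to -0.22). *Il6ra*, at -0.17 (-0.42 to 0.09), and *Ctf1*, at -0.09 (-0.19 to 0.01), did not differ beyond counting error. Scaling by total counts in place of TMM moved the median of all genes in this comparison from 0.01 to -0.17, and the share of calls that were higher from 45.0% to 29.9%. It brought *Clcf1* past the limit. Against no change, 5 of 8 members and 66.2% of genes were called. The exact test called 0 of 8 members, *Osmr* included, and 2.18% of genes.

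**Figure D2:**
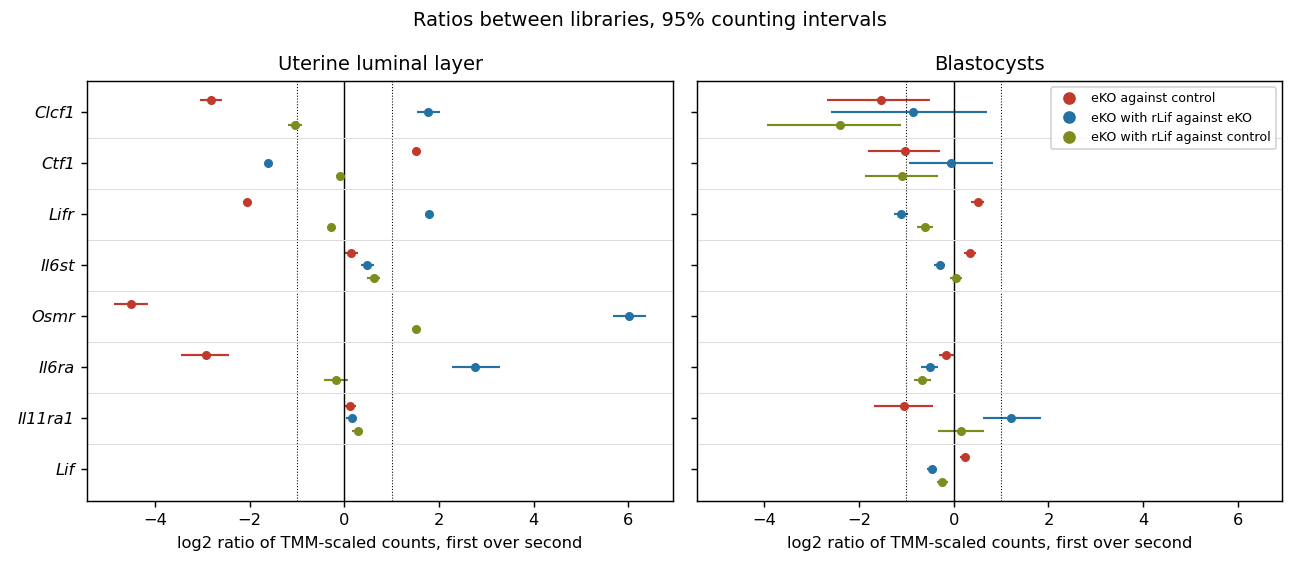
Log2 ratios of TMM-scaled counts for the 3 comparisons in the luminal layer (left) and in blastocysts (right), with exact 95% counting intervals; dotted lines mark a 2-fold change, and pairs with a library at 0 counts are left out. In the luminal layer *Osmr*, *Il6ra*, *Lifr* and *Clcf1* lie left of -1 for eKO against control, whereas most blastocyst points lie between the dotted lines.

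In blastocysts the roles were distributed differently. *Lif* was the most abundant member, with 1447, 1736 and 1250 counts in blastocysts from control, eKO and rLif-treated eKO uteri, or 75.9, 88.8 and 64.3 CPM. *Il6st* had 998, 1296 and 1051 counts (52.3, 66.3 and 54.1 CPM) and *Lifr* had 778, 1130 and 521 (40.8, 57.8 and 26.8 CPM). Both receptor chains, and *Lif* itself, were highest in the eKO library. *Il6ra*, which binds interleukin-6, had 634, 584 and 408 counts, or 33.3, 29.9 and 21.0 CPM.

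*Osmr* was close to absent from blastocysts, with 2, 0 and 2 counts. *Il11* had 0, 0 and 3 counts and *Cntfr* had 3, 2 and 0. *Il11ra1* had 69, 34 and 78 counts, *Ctf1* had 48, 24 and 23, and *Clcf1* had 31, 11 and 6. *Ctf1* and *Clcf1* were thus highest in control blastocysts, at 2.52 and 1.63 CPM. Of the 8 stroma markers, 6 were also highest in control blastocysts, among them *Dcn* at 164, 84 and 51 counts and *Vim* at 191, 72 and 100, while *Pdgfra* and *Pdgfrb* were lowest there. The summed level of all 8 stroma markers was 163, 174 and 164 CPM, with *Hand2* at 0 in the eKO library, largely from *Pdgfra*, which the primitive endoderm also expresses. All 6 immune markers were detected, at 59.2, 122 and 20.7 CPM, of which *Lyz2* alone gave 51.2, 109 and 14.9 CPM. *Lyz2*, *Ptprc*, *Cd68*, *Csf1r* and *Adgre1* were highest in the eKO library, and *Cd3e* was lowest there. The part of uterine RNA in the *Ctf1* and *Clcf1* values was not tested.

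Between blastocysts from eKO and control uteri, 0 of the 7 members with at least 10 counts were called, against 3.15% of 14873 genes, 1.29% higher and 1.86% lower. Against no change, 6 of 7 were called, beside 44.8% of genes, and the exact test called 0 of 7 and 0.437% of genes. The log2 ratios were 0.50 (0.37 to 0.64) for *Lifr*, 0.34 (0.22 to 0.46) for *Il6st*, 0.23 (0.13 to 0.33) for *Lif* and -0.15 (-0.32 to 0.01) for *Il6ra*. Those of *Clcf1*, *Il11ra1* and *Ctf1* were -1.53, -1.06 and -1.04, with intervals that crossed a 2-fold change. Between rLif-treated and untreated eKO, 0 of 7 were called, against 3.75% of genes, 0.914% higher and 2.83% lower. Against no change, 5 of 7 were called, beside 52.7% of genes, and the exact test called 0 of 7 and 0.39% of genes. *Lifr* had the largest of the well-counted ratios, -1.11 (-1.26 to -0.96), which crossed the limit, and *Il11ra1* was at 1.21 (0.61 to 1.83).

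Between blastocysts of rLif-treated eKO and control uteri, *Clcf1* was the only member called of 7, against 4.94% of genes, 3.99% lower and 0.948% higher. It was 5.27-fold lower, with a log2 ratio of -2.40 (-3.95 to -1.11) from 6 against 31 counts. *Il6ra*, at -0.66 (-0.85 to -0.48), *Lifr*, at -0.61 (-0.77 to -0.44), and *Lif*, at -0.24 (-0.35 to -0.13), lay inside the limit, and *Il6st* was at 0.05 (-0.08 to 0.17). Against no change, 5 of 7 were called, beside 52.9% of genes. The *Clcf1* call was lost with a minimum of 50 counts and with the exact test, which called 0.834% of genes.

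Per length, *Lifr* and *Osmr* each exceeded *Il6st* in the luminal libraries labelled control and rLif-treated eKO, and both lay below it in all blastocyst libraries. In the luminal library labelled eKO, *Osmr* lay below *Il6st* and *Lifr* was close to it. In the luminal layer *Lifr* was at 36.0, 7.65 and 24.3 TPM and *Osmr* at 20.3, 0.793 and 47.6 TPM. *Il6st* was at 8.41, 8.18 and 10.6 TPM. *Lifr* therefore exceeded *Il6st* 4.28-fold and 2.29-fold in the luminal control and after rLif, and was at 0.935 of it in the library labelled eKO. *Osmr* made up 31.3%, 4.77% and 57.7% of the summed TPM of these 3 chains. In blastocysts *Il6st* made up 70.7%, 68.5% and 79.1% of that sum, and *Lifr* was at 0.411, 0.460 and 0.262 of the level of *Il6st*. The TPM of *Lifr* rests on a deposited length of 10333 bases, which covers all its exons, and transcripts for the soluble and the membrane form of the receptor cannot be told apart.

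**Figure D3:**
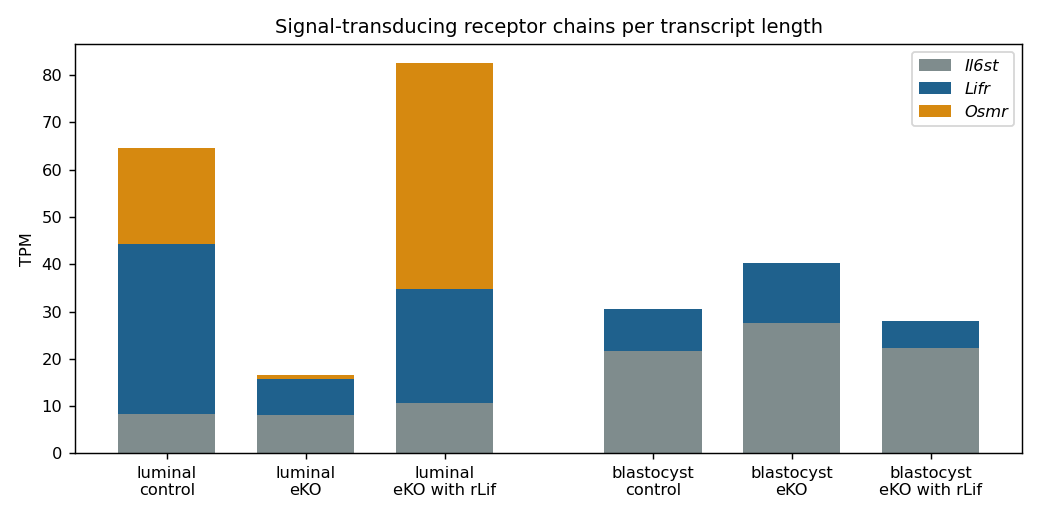
TPM of *Il6st*, *Lifr* and *Osmr*, stacked, in each of the 6 libraries (1 library per bar, no replicates). The summed level is 64.6, 16.6 and 82.5 TPM in the luminal libraries and 28.1 to 40.4 TPM in blastocysts, where *Osmr* is not visible at this scale.

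The order of the members per length was taken from their means over the 3 libraries of a tissue. In the luminal layer it ran from *Ctf1* (69.8 to 230 TPM) through *Clcf1* (11.8 to 94.3), *Il11ra1* (37.7 to 38.9), *Osmr*, *Lifr*, *Il6st* (8.18 to 10.6) and *Il6ra* (0.646 to 5.56) to *Lif*, *Il11* and *Cntfr*, each at or below 0.374. Of neighbours in this order, the ranges of *Il6st* and *Il6ra* and those of *Il6ra* and *Lif* did not overlap, and the others did. In blastocysts the order was *Lif* (35.6 to 49.98 TPM), *Il6st* (21.6 to 27.6), *Il6ra* (14.1 to 22.4), *Lifr* (5.81 to 12.7), *Il11ra1* (2.02 to 4.58), *Ctf1* (1.97 to 4.21) and *Clcf1* (0.845 to 4.47), and then *Cntfr*, *Il11* and *Osmr*, each at or below 0.178. There the ranges did not overlap between *Lif* and *Il6st*, between *Il6ra* and *Lifr*, between *Lifr* and *Il11ra1*, and between *Clcf1* and *Cntfr*. The ligands among the members were divided between the tissues. *Lif* gave 83.0% to 93.2% of their summed TPM in blastocysts and at most 0.155% in the luminal layer. In the luminal layer *Clcf1* gave 50.9%, 4.88% and 34.9% of that sum and *Ctf1* nearly all of the rest. The ligand *Il6*, which is not a member, is left out of these sums. It was at 50.6, 51.1 and 76.8 TPM in blastocysts, above *Lif* in each library.

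Luminal layer and blastocysts were then compared at matched condition, with the 6 libraries scaled together. A difference was called only if it lay beyond 2-fold in all 3 conditions, which held for 5 of the 9 members tested and for 39.3% of 17081 genes, 19.9% higher in the luminal layer and 19.5% in blastocysts. *Osmr*, *Il11ra1*, *Clcf1* and *Ctf1* were higher in the luminal layer, and *Lif* was higher in blastocysts. *Osmr* had 5662 luminal and 4 blastocyst counts in all. It thus passed the count minimum only through the luminal layer and had to differ. The log2 ratio of *Osmr*, luminal over blastocyst, was 9.21 (7.35 to 12.26) in control and 10.74 (8.88 to 13.78) with rLif, against 2 blastocyst counts each. In eKO *Osmr* was 17.5-fold higher against the floor of 3 counts, with a lower end of the log2 interval of 3.79. *Ctf1* had log2 ratios of 4.94, 7.46 and 5.92, *Clcf1* of 4.91, 3.58 and 6.24, and *Il11ra1* of 3.74, 4.89 and 3.85. *Lif* was 84.1-fold higher in eKO blastocysts (log2 ratio -6.39, interval -6.99 to -5.86). Against the floor of 3 counts it was 576-fold higher in control blastocysts and 509-fold higher with rLif. The ends of these log2 intervals nearest to no change were -8.87 and -8.69.

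The remaining receptor chains were not called between tissues. *Lifr* was higher in the luminal layer in control and with rLif, at 2.53 (2.42 to 2.64) and 2.84 (2.71 to 2.97), and was at -0.07 (-0.18 to 0.05) in eKO. *Il6ra* was higher in blastocysts in each condition, at -1.50, -4.31 and -1.02, the last with 2-fold inside its interval (-1.25 to -0.79). *Il6st* was at -0.85, -1.09 and -0.30, also higher in blastocysts. The tissues differed in how the material was collected, by dissection from frozen sections and by flushing, and collection and tissue cannot be told apart.

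**Figure D4:**
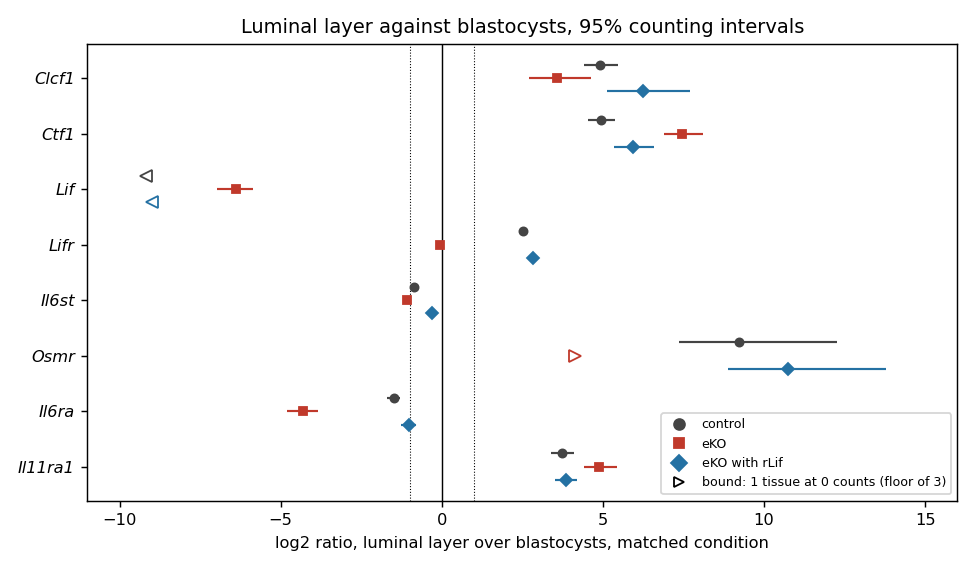
Log2 ratio of luminal layer over blastocysts at matched condition, with exact 95% counting intervals; open triangles are bounds against a floor of 3 counts, and dotted lines mark a 2-fold change. *Lifr* is at 2.53 in control and at -0.07 in eKO, while *Lif* is on the blastocyst side in all 3 conditions.

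Of 27 other genes of the pathway, 24 were tested in the luminal layer. For eKO against control, 3 were higher and 2 lower, or 20.8%, near the 17.2% of all genes called, and the median log2 ratio was 0.42, beside 0.00 over all genes. The exact test called *Il6*, *Ctf2* and *Socs3* and not *Jak2* or *Socs2*. The ligand *Il6* had 2, 240 and 106 counts, so control was low and the others high (log2 ratio 6.72, interval 4.85 to 9.77, for eKO against control). *Ctf2*, a relative of *Ctf1*, had 25, 215 and 27 counts (log2 ratio 2.92, interval 2.32 to 3.58), high only in the library labelled eKO, as *Ctf1* was. *Jak2*, a kinase bound to gp130, had 1960, 7134 and 1874 counts (log2 ratio 1.68, interval 1.61 to 1.75), high only in the library labelled eKO. The markers of immune cells, which are known to produce interleukin-6, summed to 810, 673 and 655 CPM. Most of this was *Lyz2*, at 745, 612 and 549 CPM. In contrast, *Ptprc*, *Cd68*, *Csf1r* and *Adgre1* were highest after rLif, while *Cd3e* was lowest there. The part of immune cells in the *Il6* counts was not tested.

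The feedback inhibitors had the order of *Osmr* in part. *Socs3*, the Stat3-induced inhibitor of gp130 signalling, had log2 ratios of -3.46 for eKO against control and 4.93 for eKO with rLif against eKO. *Socs2* had 4539, 1627 and 8901 counts and log2 ratios of -1.67 and 2.59. For eKO with rLif against eKO, 4 of the 24 were higher (*Il31ra*, *Stat3*, *Socs3* and *Socs2*) and 3 lower (*Ctf2*, *Jak2* and *Pias3*), with a median of 0.01, against 15.6% of all genes called. The exact test called 3 of these 7, *Ctf2*, *Socs3* and *Socs2*. *Il31ra*, which pairs with *Osmr* to bind interleukin-31, had 0, 0 and 12 counts, so it passed the count minimum only through the library where it was present and had to differ. For eKO with rLif against control, 4 were higher (*Il6*, *Il31ra*, *Socs3* and *Cish*) and 0 lower, or 3 of 23 without *Il31ra*, against 9.16% of all genes. The exact test called only *Il6*. Several ligands were scarce. *Osm*, the ligand of *Osmr*, had 4, 0 and 8, *Cntf* had 1, 0 and 2, and *Il31* had none.

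In blastocysts, 22 of the 27 were tested and 0 were called in each of the 3 comparisons, where 3.15%, 3.75% and 4.94% of all genes were called, so a list of this size would hold few calls at those shares. *Il6*, whose receptor *Il6ra* was among the more abundant chains there, had 466, 478 and 725 counts. *Osm* had 41, 48 and 55 counts, while its receptor *Osmr* was close to absent. *Socs3* had 4031, 5440 and 3248 counts and *Stat3* had 3699, 4651 and 4870. *Ltf*, whose promoter drives Cre, had 2745, 992 and 851 counts in the luminal layer and 3, 11 and 3 in blastocysts.

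**Figure D5:**
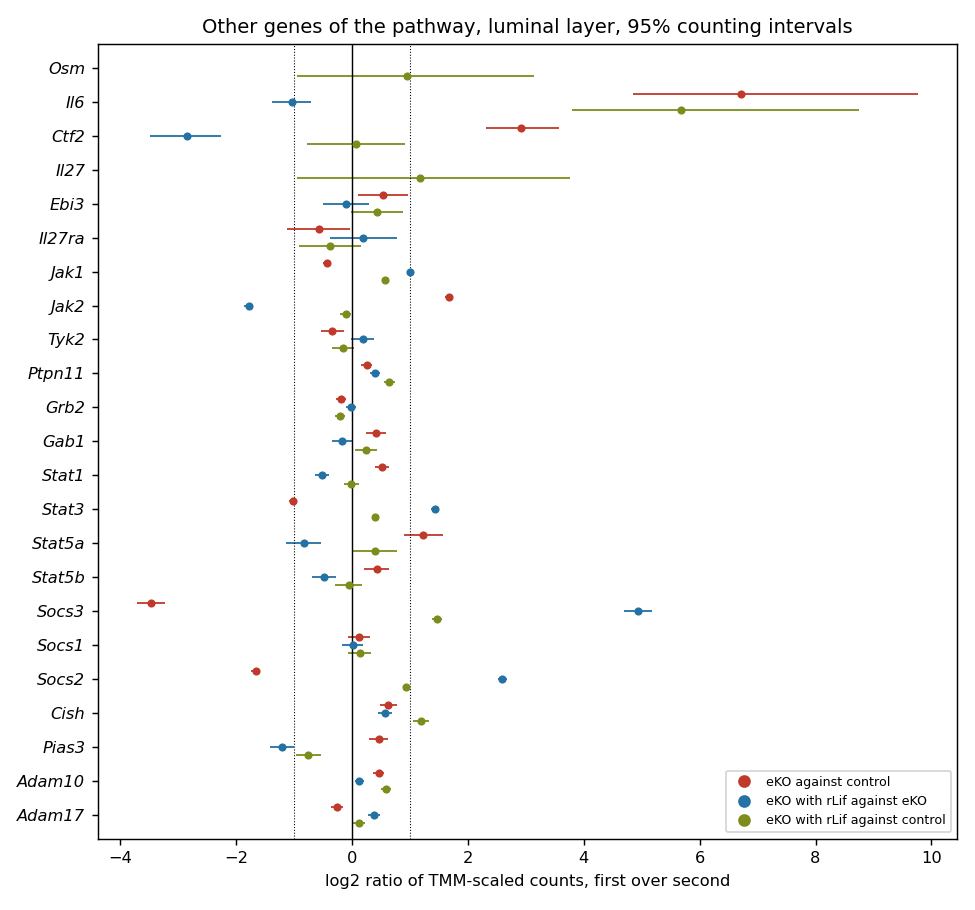
Log2 ratios of the other pathway genes in the luminal layer for the 3 comparisons, with exact 95% counting intervals; dotted lines mark a 2-fold change, and pairs with a library at 0 counts are left out. *Il6* lies farthest to the right for eKO against control, at 6.72, and *Socs3* farthest to the left, at -3.46.

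The genes whose pattern over the 6 libraries was nearest to those of the 3 signalling chains were found by the distance between log2(CPM + 2) values centred on the mean of each gene, among 17081 genes. For *Lifr* they were *Nr1d1*, *Plxnb1* and *Pnpla2*, at distances of 0.638, 0.647 and 0.662. *Plxnb1* had 2000, 832 and 3007 luminal counts and 448, 646 and 235 in blastocysts. For *Osmr* they were *Slc26a6*, *Entpd3* and *Gmpr*, at 1.01, 1.06 and 1.06. *Gmpr* had 3827, 249 and 9035 luminal counts and 12, 17 and 18 in blastocysts. For *Il6st* they were *Kcnh2*, *Dennd5a* and *Coro7*, at 0.179, 0.185 and 0.189, and these short distances reflect its flat profile. *Kcnh2* had 0, 12 and 30 luminal counts, a low level at which the added 2 CPM flattens differences.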

How the data were processed

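From pooled luminal RNA or pooled blastocysts, the authors prepared SMART-seq libraries, aligned paired-end reads with HISAT2 to GRCm38/mm10 and counted them per gene with featureCounts (Subread 2.0.0). The deposited values are whole-number read counts, 1 table per tissue, with the summed exon length of each gene as another column. The study's methods describe normalized values, but the numbers were whole with a different total per library. The annotation release, strand setting and handling of multi-mapping reads are not given in the sources used here.

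TMM factors (edgeR 4.0.16 in R 4.3.3) were computed over genes with at least 10 counts in the 3 libraries of a tissue. CPM used the library sizes they gave, and TPM used the deposited lengths. Single counts have exact 95% Poisson intervals and ratios of counts exact 95% Clopper-Pearson intervals (scipy 1.17.1). A gene was called when its interval lay wholly beyond a log2 ratio of 1. Folds against a library at 0 counts are bounds from a floor of 3 counts put in its place, and leave out the counting error of the other library. PCR reads without molecular identifiers are not independent molecules. The call rule was tested on simulated counts that held counting error only, with changes set only in well-counted genes. That setting leaves out variation between pools and changes in genes of low count, so it does not check the calls for these.

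The members and lists were chosen with earlier results of these data known. All members were named. A listed pathway gene is not reported here. Pathway genes were named where called, at 0, or needed beside a member, and 3 nearest genes for each of *Lifr*, *Il6st* and *Osmr*. The marker lists also covered smooth muscle (31.3 to 64.8 CPM summed in the luminal libraries), endothelium (41.0 to 59.5 CPM) and primitive endoderm (1160 to 2600 CPM, mostly *Sox17*, which uterine epithelium also expresses). Symbols of 3 markers were matched through RefSeq synonyms. Alternatives were DESeq2 1.42.0 size factors, total counts, other count minimums and limits, and edgeR's exact test at a fixed dispersion of 0.1.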

Additional observations from a re-analysis of the deposited data

Results flagged for a closer look

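For 5 of the genes, the luminal layer and blastocysts moved in opposite directions under the same contrast, with both counting intervals clear of no change. For eKO against control, 74.7% of genes in the luminal layer and 44.8% in blastocysts were clear of no change. For eKO with rLif against eKO the shares were 71.4% and 52.7%. The share of all genes that moved in opposite directions was not counted, so the number of members is not a result about them. Each group was 1 library, so none of these differences was tested.

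*Lifr* differed most often. For eKO against control its log2 ratio was -2.06 in the luminal layer and 0.50 in blastocysts, a difference of -2.56. For eKO with rLif against eKO it was 1.78 in the luminal layer and -1.11 in blastocysts, a difference of 2.89. For *Ctf1*, eKO against control was 1.52 in the luminal layer and -1.04 in blastocysts, where 24 were set against 48 counts, a difference of 2.55. For *Il11ra1* in the same contrast the ratios were 0.13 and -1.06, a difference of 1.19, with its exons overlapping another gene as said above. Its luminal ratio was small, with an interval of 0.01 to 0.25, and was 0.06 when scaled by total counts. For *Il6ra*, eKO with rLif against eKO was 2.76 in the luminal layer and -0.51 in blastocysts, a difference of 3.27. *Il6st* in that contrast was at 0.48 and -0.29, a difference of 0.78.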

How the results depend on the processing

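No alternative reversed a result. Of 84 log2 ratios of members recomputed with DESeq2 size factors or total counts, none changed sign, and the largest shift was 0.18. Of 50 recomputed counts of calls or of separated neighbours, 38 stayed within 1.5 times the reported number. For eKO with rLif against eKO in the luminal layer, 3 members were called with a log2 limit of 2 and 3 with edgeR's exact test, in place of 6. For eKO with rLif against control there, total counts gave 2 and a log2 limit of 0 gave 5, while a limit of 2 and the exact test gave 0 each. In blastocysts, a limit of 0 gave 6 members between eKO and control, 5 between rLif-treated and untreated eKO, and 5 between the treated eKO and control. This last comparison gave 0 with a limit of 2, with a minimum of 50 counts and with the exact test. Scaling by total counts moved the median log2 ratio of all genes to -0.12 for rLif-treated against untreated eKO in the luminal layer, and changed no call of a member there. The exact test's dispersion of 0.1 is an assumption, since 1 library per group gives no estimate. Leaving out a library was not possible for the same reason. No paired analysis was possible because each group held 1 library, so conditions share no pairs. The tissues were read pair by pair at matched condition, and no test over the 3 pairs was run. In blastocysts, counts of 0 to 78 for *Clcf1*, *Ctf1*, *Il11ra1* and *Osmr* limit what could be seen.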
